A study of Mus musculus with 8 samples.

Results

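The genes described here encode 7 ADAM proteins of male germ cells and 3 chaperones of the testis endoplasmic reticulum. They were chosen by name: Adam1a, Adam2, Adam3, Adam5, Adam18, Adam24 and Adam32 on the ADAM side, and Clgn, Calr3 and Pdilt on the chaperone side. All 10 were present among the 17127 genes of the table. The list was drawn up with earlier results of these data known. Transcript levels came from RNA-seq of whole adult testis of mice aged 4 months, on a B6CBAF1 background. The controls were wild type for Iqch (libraries 1 to 4). The mutants, labelled Iqch-/-, were homozygous for a small CRISPR-Cas9 deletion in exon 19 of Iqch, which predicts a truncated protein (libraries 1, 2 and 4). Of the edited lines, the study names mu7 for its RNA-seq reads, while the labels name no line. The study left out 1 mutant sample as an outlier, without giving its number. Mutant 3 has no values and is not analysed here. Values are CPM, in which a gene's reads are divided by the library's total and multiplied by 1000000. The question was whether the transcripts of the ADAM proteins and those of the proteins that fold them change together in Iqch mutant testis.

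ADAM proteins are membrane-anchored proteins with a disintegrin and a metalloprotease domain. In male germ cells they are made as precursors, folded and paired in the endoplasmic reticulum and cut before sperm leave the epididymis. Calmegin (Clgn) is a testis relative of calnexin that is needed to pair ADAM1A with ADAM2, the fertilin complex. Calsperin (Calr3), a relative of calreticulin, and PDILT, a relative of protein disulphide isomerase, are needed for ADAM3 to mature. Sperm of mice that lack ADAM3 fail to pass the uterotubal junction and bind the zona pellucida poorly.

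The 7 ADAM genes differ at the site where an active metalloprotease holds its zinc, and the stretches below show which genes keep it. Each is 33 coding bases long, aligned to that site, read 5′ to 3′ on the coding strand from GRCm39 with GENCODE M39 coding exons. Capitals mark the 4 codons that specify the histidines and the glutamate of an active site, or the codons aligned to them.
Adam1a (chr5:121658152-121658184, minus strand): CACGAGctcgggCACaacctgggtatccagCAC
Adam24 (chr8:41133557-41133589, plus strand): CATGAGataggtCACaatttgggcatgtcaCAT
Adam2 (chr14:66291290-66291322, minus strand): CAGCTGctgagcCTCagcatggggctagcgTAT
Adam3 (chr8:25197434-25197466, minus strand): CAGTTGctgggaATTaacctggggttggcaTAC
Adam5 (chr8:25296465-25296497, minus strand): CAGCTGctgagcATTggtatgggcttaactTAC
Adam18 (chr8:25137864-25137896, minus strand): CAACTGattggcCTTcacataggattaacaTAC
Adam32 (chr8:25391517-25391549, minus strand): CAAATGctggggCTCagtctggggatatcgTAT
Adam1a and Adam24 held all 4 key codons. Adam2, Adam3, Adam5, Adam18 and Adam32 held 0 of the 4. These 5 genes were also those most alike, with 35.6% to 41.0% identical residues between translated pairs, against 29.0% to 35% for pairs with Adam1a or Adam24.

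Among the chaperones, the part that tells PDILT from its general relative is the pair of redox sites. The next stretches are 24 coding bases around each site, from the same build, with capitals at the codons aligned to the paired cysteines of protein disulphide isomerase (P4hb).
P4hb, first site (chr11:120462525-120462548, minus strand): ccgtggTGTggccacTGCaaagct
Pdilt, first site (chr7:119114275-119114298, minus strand): ccatccTTAaaacagTCCaggaag
P4hb, second site (chr11:120453343-120453366, minus strand): ccttggTGTggtcacTGCaagcag
Pdilt, second site (chr7:119088743-119088766, minus strand): ccctggTCTgagaaaTGCagggtg
P4hb keeps 2 of 2 cysteine codons at both sites, and Pdilt keeps 0 of 2 at the first and 1 of 2 at the second. The translated Pdilt shares 30.1% of aligned residues with P4hb, while Clgn shares 59.1% with Canx and Calr3 shares 52.1% with Calr.

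In GRCm39, 7 of the 10 genes lie on chromosome 8. Adam18 (25092262 to 25164775), Adam3 (25167241 to 25215922), Adam5 (25217109 to 25314636) and Adam32 (25326156 to 25438845) follow each other on the minus strand within 347 kb. Adam24 (41128118 to 41135239, plus strand), Calr3 (73178009 to 73197714, minus strand) and Clgn (84116307 to 84155187, plus strand) lie elsewhere on chromosome 8. Adam1a lies on chromosome 5 (121656639 to 121660134), Adam2 on chromosome 14 (66264778 to 66315204) and Pdilt on chromosome 7 (119085810 to 119122712), all on the minus strand.

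Within a library every CPM value (100%) was a multiple of the same step. If that step is 1 read, the totals were 32859673 to 37551057 reads per wild-type library and 32064384 to 34806129 per mutant library, and the members rested on 3110 to 45400 reads per library. Iqch itself was present at 193 to 217 CPM in wild type and 64.8 to 69.2 CPM in mutants, a log2 fold change of -1.63 (limma adjusted p = 1.92e-10), so the labels and the targeted gene go the same way. Libraries of the same group correlated at 0.992 or higher over genes, and pairs across groups at 0.943 to 0.955. Each library is taken to be a separate mouse. The marker genes of elongating spermatids, which pack DNA and build the tail, summed to at least 16580 CPM in every library.

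In wild-type testis the 7 ADAM genes together took 3795 to 3902 CPM and the 3 chaperones 1012 to 1073 CPM. Levels were compared between genes only after division by exon length. Adam5 was highest, at 344 ± 5.83 CPM per kb of exon (SD, n = 4), followed by Adam3 at 278 ± 6.57. Adam32 came next at 195 ± 1.91, then Clgn at 168 ± 8.49 and Adam2 at 134 ± 3.20 CPM per kb. Pdilt at 75.2 ± 2.62 and Calr3 at 67.9 ± 6.58 CPM per kb overlapped in their wild-type ranges, so their order is not set. Adam18 stood at 56.1 ± 2.24 CPM per kb. Adam1a at 42.7 ± 1.97 and Adam24 at 41.4 ± 1.20 CPM per kb were lowest and overlapped each other. The other neighbours in this order did not overlap. The order depended on the length used at the top only: with the longest annotated transcript in place of all exons, Adam3 reached 433 CPM per kb and Adam5 374. In mutant testis the order was the same except that Adam24 (36.8 ± 1.59, n = 3) came above Adam1a (32.0 ± 1.79).

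**Figure D1:**
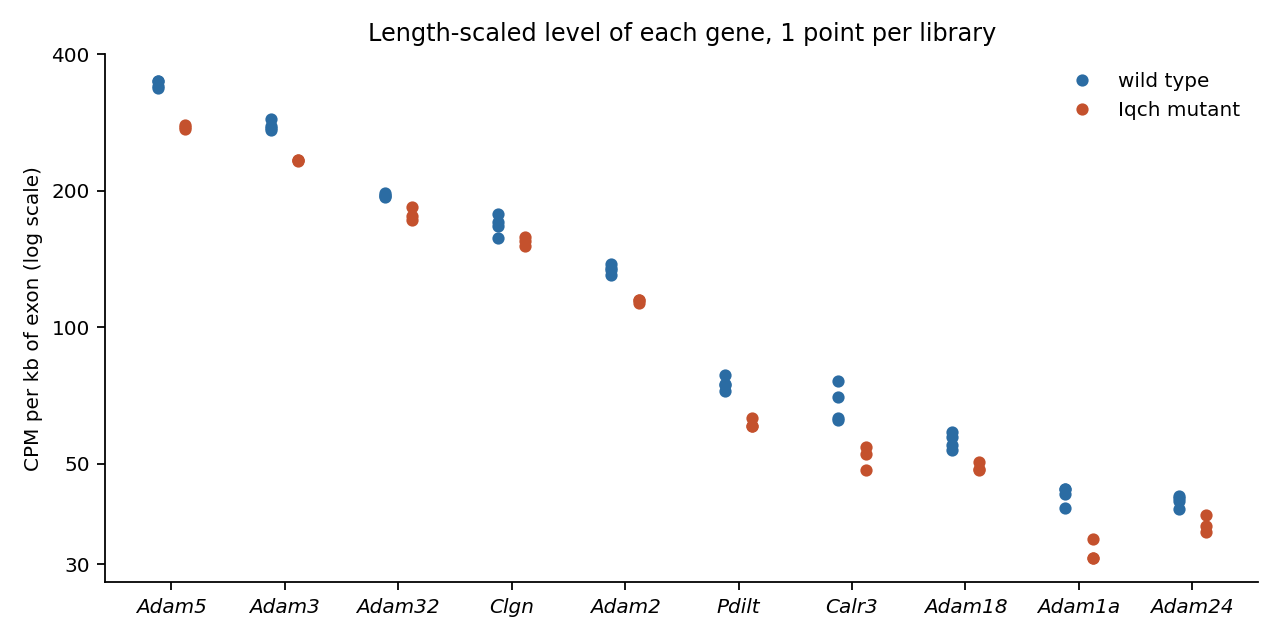
Level of each gene in CPM per kb of exon (log axis), with 1 point for each of the 4 wild-type (blue) and 3 Iqch mutant (red) libraries, ordered by the wild-type mean. Adam5 and Adam3 are at the top at 344 and 278 CPM per kb in wild type, Adam1a and Adam24 are at the bottom, and Clgn is the only gene here whose groups overlap.

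Transcripts of all 7 ADAM genes were downregulated in Iqch mutant testis, by 9.2% to 25.1%, and those of 2 of the 3 chaperones, Calr3 and Pdilt, by 23.5% and 18.4%. Clgn did not pass the threshold. A gene was called at an FDR below 0.01 in limma, fitted to log2(CPM + 0.1) over 17126 genes with Benjamini-Hochberg adjustment. By the same rule 14.2% of all genes were called lower (2428) and 36.3% higher (6212). In 9 of the 10 members every mutant library lay below every wild-type library, which held for 19.5% of all genes. The median log2 fold change was -0.24 over the 10 members and 0.12 over all tested genes. In whole testis, fewer cells of a type and less RNA per cell cannot be told apart.

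**Figure D2:**
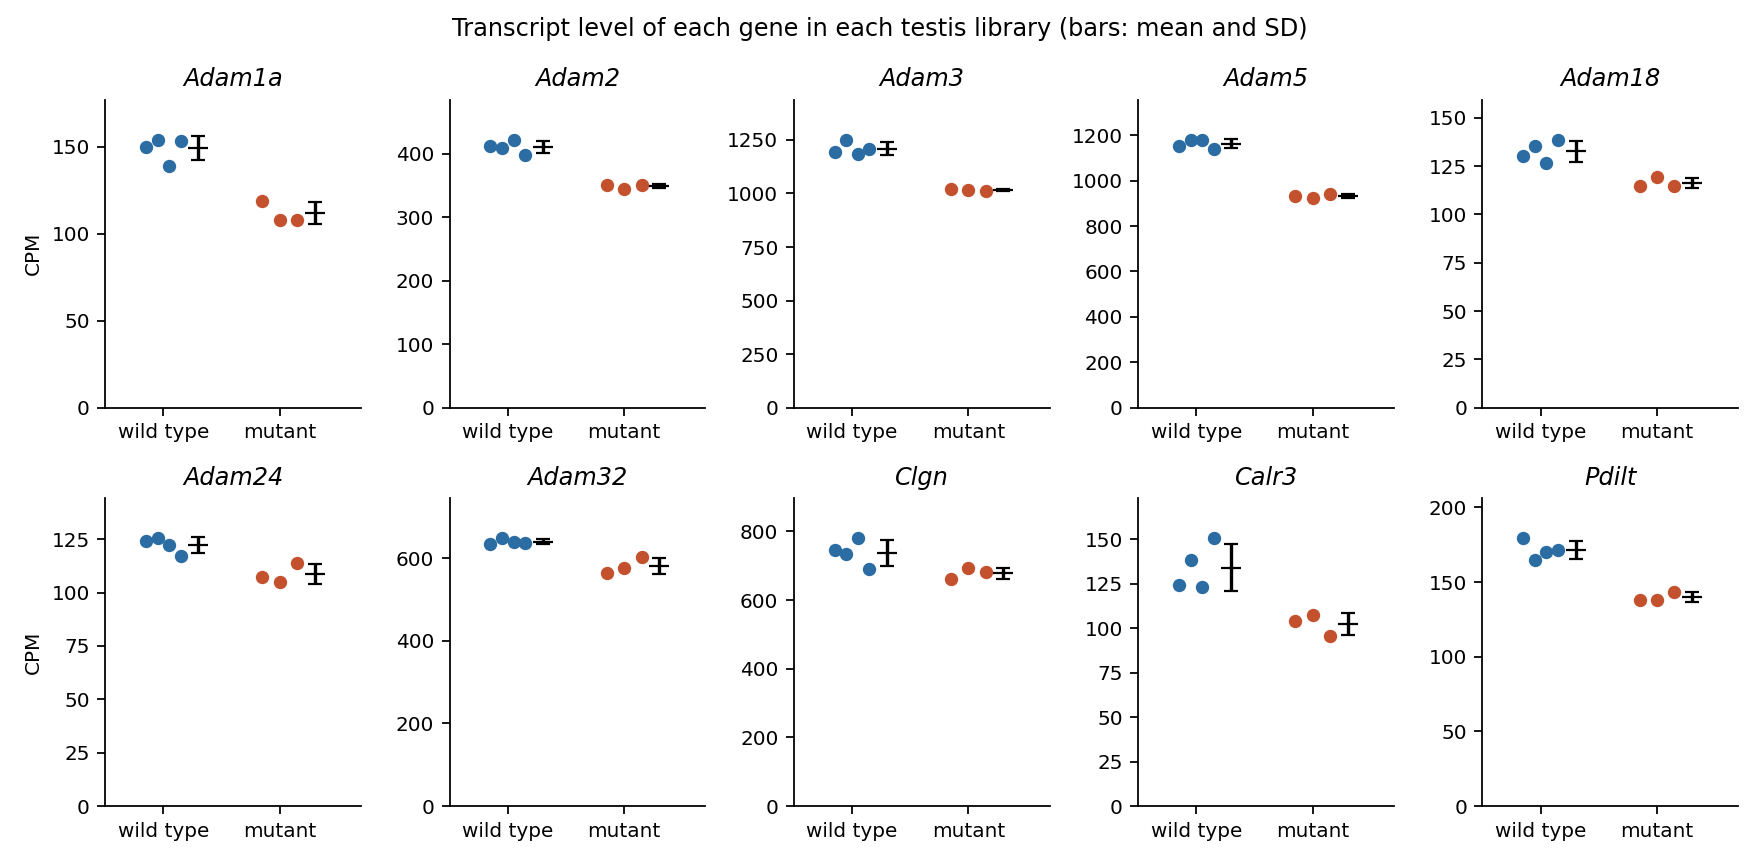
Level of each of the 10 genes in CPM (linear axes from 0) in each wild-type (blue, n = 4) and Iqch mutant (red, n = 3) library, with the mean and SD in black. Mutant points lie below all wild-type points in every panel but that of Clgn, where mutant 2 (693 CPM) lies above wild type 4 (689.9 CPM).

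Adam1a and Adam2 encode the partners that calmegin pairs into fertilin. Adam1a stood at 150.0, 154, 139 and 154 CPM in wild-type libraries 1 to 4 and at 119, 108 and 108 CPM in mutants 1, 2 and 4. The groups did not overlap, and mutant 1 was nearest to wild type. Its log2 fold change was -0.42 (SE 0.051, limma adjusted p = 1.64e-05), the largest among the ADAM members. Of the 50-base windows of the Adam1a transcript, 51.9% also occur in Adam1b or in Gm42878, a gene whose exons overlap Adam1a on the same strand, so its count is uncertain. Adam2 stood at 412, 408, 422 and 398 CPM in wild type and at 350.4, 345 and 350.3 CPM in mutants. The mutant libraries were close together and well below wild type 4, the lowest control. Its log2 fold change was -0.23 (SE 0.036, limma adjusted p = 0.000104).

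Adam3 encodes the protein that sperm need to pass the uterotubal junction. Its level was 1194, 1250.3, 1186 and 1209 CPM in wild type and 1019.6, 1018 and 1013 CPM in mutants. The mutants spanned a far narrower range than the controls, with an SD of 3.45 CPM (n = 3) against 28.6 CPM (n = 4). The mutant SD does not include the sample that the study left out as an outlier. The log2 fold change was -0.25 (SE 0.035, limma adjusted p = 4.38e-05). Adam5, its neighbour and the most abundant member per kb, stood at 1153, 1180.0, 1179 and 1140.3 CPM in wild type and at 934, 924 and 942 CPM in mutants. No mutant library came near the wild-type range. Its log2 fold change was -0.32 (SE 0.034, limma adjusted p = 4.66e-06).

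Adam18 and Adam32 flank that pair on chromosome 8 and had smaller fold changes. Adam18 stood at 130.4, 135, 127 and 139 CPM in wild type and at 115, 119 and 115 CPM in mutants, a log2 fold change of -0.19 (SE 0.045, limma adjusted p = 0.0026). Adam32 stood at 634, 649, 639.9 and 638 CPM in wild type and at 565, 576 and 604 CPM in mutants. Its controls were tightly grouped and mutant 4 was the nearest to them. Its log2 fold change of -0.14 (SE 0.036, limma adjusted p = 0.00505) was the smallest among the ADAM members. Adam24, also called testase 1, which keeps the zinc codons shown above, stood at 124, 125, 122 and 117 CPM in wild type and at 107, 105 and 114 CPM in mutants. The highest mutant was just under the lowest control, and the log2 fold change was -0.17 (SE 0.045, limma adjusted p = 0.00559). These 3 calls were close to the threshold. Adam18 lost its call in 3 of 7 fits with 1 library left out (wild type 2 or mutants 1 or 4), Adam32 in 4 (wild types 1 or 2, or mutants 1 or 2) and Adam24 in 5 (wild types 1 to 3, or mutants 1 or 2). The highest adjusted p among those fits was 0.0148, 0.0221 and 0.0306, in that order.

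The 2 ADAM genes with the zinc codons had log2 fold changes of -0.42 and -0.17, with a median of -0.29 against -0.23 for the 5 without. No test was run on this split.

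Among the chaperones, Calr3 stood at 124, 138, 123 and 150.4 CPM in wild type and at 104, 107 and 95.5 CPM in mutants. It had the widest spread of the members in proportion to its level, with wild types 4 and 2 high and wild types 1 and 3 low, but the groups did not overlap. Its log2 fold change was -0.39 (SE 0.069, limma adjusted p = 0.000359). Pdilt stood at 179, 165, 170.5 and 171 CPM in wild type and at 138, 138 and 144 CPM in mutants. All mutants were well under wild type 2, the lowest control, and the log2 fold change was -0.29 (SE 0.042, limma adjusted p = 6.11e-05). Clgn stood at 746, 733, 779.8 and 689.9 CPM in wild type and at 660.4, 693 and 681 CPM in mutants. Mutant 2 exceeded wild type 4, so the groups overlapped, and the log2 fold change of -0.12 (95% interval -0.22 to -0.02, limma adjusted p = 0.0303) did not pass. Without wild type 4, Clgn was called (-0.15, limma adjusted p = 0.00559). Exons of Adam3, Clgn, Calr3 and Pdilt overlap genes on the opposite strand, and the strand setting of the counting is not given in the sources used here.

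Scaling mattered for Clgn and for no call of the other 9. CPM carry no correction for composition, and median-of-ratios size factors, computed from the CPM, moved the median of all genes from 0.12 to -0.01. With them 25.1% of all genes were called lower (4294) against 4627 called higher. All 10 members were then called lower, with log2 fold changes from -0.55 (Adam1a) to -0.25 (Clgn, limma adjusted p = 0.000384). Set against the median of all genes, the members stood at -0.54 (Adam1a) to -0.24 (Clgn).

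**Figure D3:**
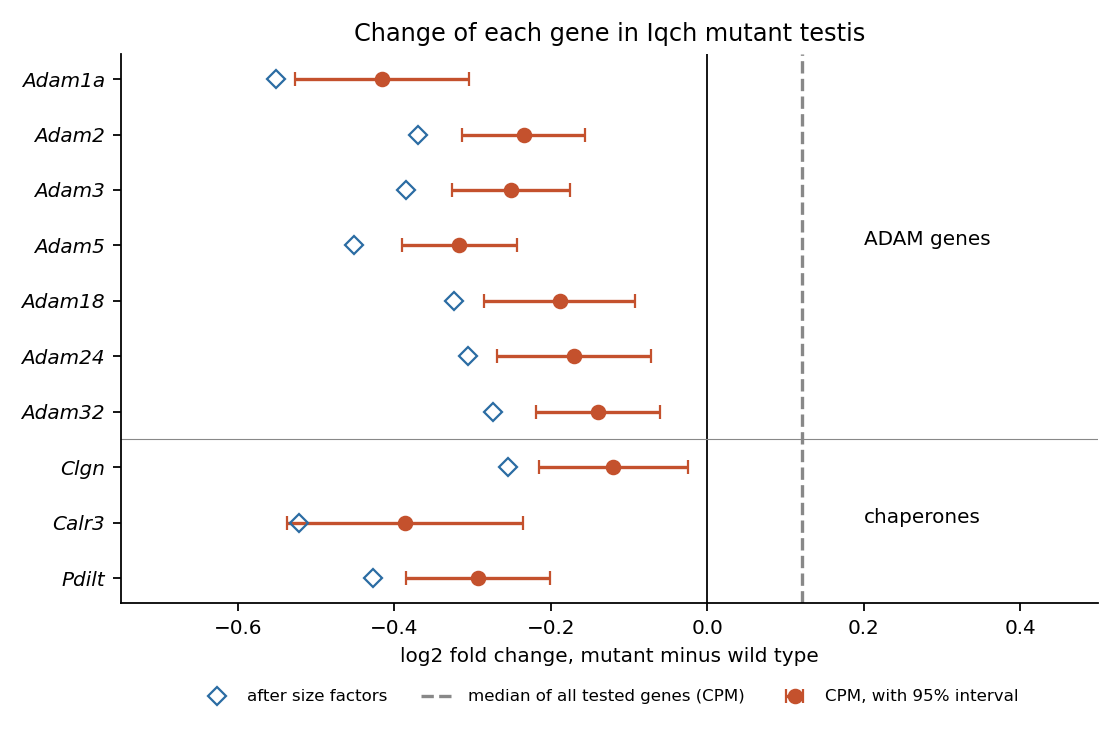
Log2 fold change (mutant minus wild type) of each gene with its 95% interval from limma on CPM (red), and after median-of-ratios size factors (open blue diamonds). All 10 lie left of 0 and of the dashed line, the median of all tested genes at 0.12, and the diamonds lie further left by the shift in scale.

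ADAM genes were then set against each chaperone within each library, which cancels the library's scale. The log2 level of the chaperone was subtracted from that of every gene, and limma was fitted over all genes. Relative to Clgn, Adam1a and Adam5 were lower in mutants (2 of 7 called). By this measure 5.36% of all genes were called lower and 43.2% higher. The ratio of Adam5 to Clgn was 1.54, 1.61, 1.51 and 1.65 in wild type and 1.41, 1.33 and 1.38 in mutants, without overlap, a log2 difference of -0.20 (SE 0.056, limma adjusted p = 0.00783). The ratio of Adam1a to Clgn was 0.201, 0.21, 0.179 and 0.223 in wild type and 0.18, 0.156 and 0.159 in mutants. Mutant 1 was just above wild type 3, and the log2 difference was -0.30 (SE 0.077, limma adjusted p = 0.00489). Neither call held in every fit that left out a library: Adam5 relative to Clgn was called in 1 of 7 such fits (that without wild type 3), and the Adam1a call was lost on leaving out wild type 1 or 2, or mutant 2 or 4 (highest adjusted p 0.0331 and 0.0282). Adam3 to Clgn was 1.60, 1.71, 1.52 and 1.75 in wild type and 1.54, 1.47 and 1.49 in mutants, with overlap (log2 difference -0.13, limma adjusted p = 0.0834).

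Relative to Calr3, none of the 7 ADAM genes was called by limma (1 had an unadjusted p under 0.05), while 1.75% of all genes were called lower and 63.6% higher. The log2 differences ran from -0.03 (Adam1a) to 0.25 (Adam32), and their 95% intervals reached from -0.24 to 0.47. Adam3 to Calr3 was 9.61, 9.03, 9.64 and 8.03 in wild type and 9.81, 9.48 and 10.6 in mutants. The groups overlapped, with wild type 4 low. The ratios of 2 genes to Calr3 did not overlap between groups, and both were higher in mutants without passing the threshold. The share of all genes whose ratio to Calr3 did not overlap was not computed. Adam32 to Calr3 was 4.24 to 5.20 in wild type and 5.36 to 6.32 in mutants (limma adjusted p = 0.0401). Adam18 to Calr3 was 0.922 to 1.05 in wild type and 1.11 to 1.20 in mutants (limma adjusted p = 0.0796).

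Relative to Pdilt, again none of the 7 was called by limma (2 had an unadjusted p under 0.05), while 3.01% of all genes were called lower and 63.8% higher. The log2 differences ran from -0.12 (Adam1a) to 0.15 (Adam32), with 95% intervals reaching from -0.26 to 0.26. Adam3 to Pdilt was 6.65, 7.58, 6.96 and 7.05 in wild type and 7.37, 7.37 and 7.05 in mutants, within the wild-type range. Adam32 to Pdilt was 3.53, 3.93, 3.75 and 3.72 in wild type and 4.08, 4.17 and 4.20 in mutants (limma adjusted p = 0.0144), and it was called without wild type 2 (limma adjusted p = 0.00721). A p above the threshold does not show equal change: the intervals allow the ratios to differ between groups by the amounts given.

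**Figure D4:**
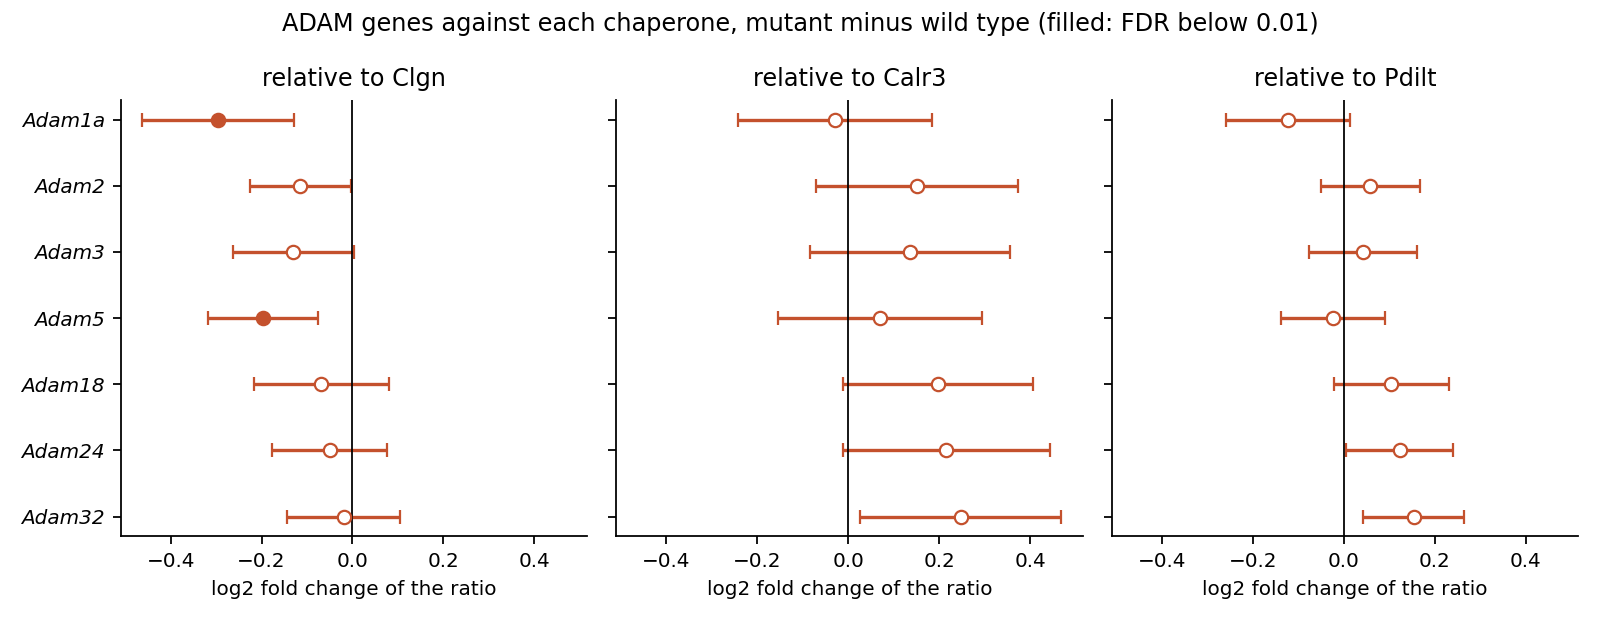
Log2 fold change (mutant minus wild type) of the ratio of each ADAM gene to Clgn, Calr3 or Pdilt, with 95% intervals from limma; filled points have an FDR below 0.01. Only Adam1a (-0.30) and Adam5 (-0.20) relative to Clgn are filled, and most intervals against Calr3 and Pdilt span 0.

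As groups, the median log2 fold change was -0.23 for the 7 ADAM genes and -0.29 for the 3 chaperones, a difference of 0.06. The mean log2 level of the ADAM genes exceeded that of the chaperones by 0.52, 0.55, 0.51 and 0.49 in wild type and by 0.55, 0.50 and 0.57 in mutants. These values overlapped. The chaperones were also set against each other. Calr3 relative to Clgn had a log2 difference of -0.27 (limma adjusted p = 0.027) and Pdilt relative to Clgn one of -0.17 (limma adjusted p = 0.0222). Both were without overlap between groups and neither passed the threshold. How many of all genes had no overlap relative to Clgn was not computed.

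The 14 other ADAM genes known from testis all had negative log2 fold changes, on CPM and after size factors, with a median of -0.20 on CPM. By limma, 5 of them were called lower, beside 14.2% of all genes: Adam21 (-0.69), Adam39 (-0.38), Adam25 (-0.29), Adam1b (-0.25) and Adam6a (-0.23). Adam21 stood at 43.9 to 49.5 CPM in wild type and 27.8 to 30.8 CPM in mutants, a larger log2 fold change than that of any member. Adam1b, the close relative of Adam1a with the same 33 bases at the zinc site, stood at 136 to 155 CPM in wild type and 119.7 to 128 CPM in mutants. The 9 not called were Adam4 (-0.20), Adam6b (-0.13), Adam20 (-0.06), Adam26a (-0.13), Adam26b (-0.19), Adam29 (-0.04), Adam30 (-0.15), Adam34 (-0.21) and Adam34l (-0.30). After size factors 11 of the 14 were called lower, beside 25.1% of all genes.

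Of 12 genes whose products are needed for ADAM3 to mature or reach its place on sperm, 11 were found in the table. The other, 1700029I15Rik, was not found by that symbol in the annotation, so its values could not be looked up. By limma 8 were called lower and 2 higher, beside 14.2% of all genes called lower and 36.3% higher. Ace, whose testis form is a surface peptidase, stood at 664 to 758 CPM in wild type and 557 to 594 CPM in mutants (log2 fold change -0.29). The serine protease genes Prss37 and Prss55 had log2 fold changes of -0.29 and -0.39. The membrane protein genes Cmtm2a (-0.24) and Cmtm2b (-0.28), the genes of the Ly6 family Ly6k (-0.24) and Lypd4 (-0.20), and Pmis2 (-0.26) were also lower. Tex101, which encodes a germ cell surface protein, was not called (0.09, 162 to 183 CPM in wild type and 178 to 184 CPM in mutants), and its sign changed after size factors (-0.04). Tpst2, a tyrosylprotein sulfotransferase of the Golgi, was higher at 11 to 14.2 CPM against 6.44 to 8.16 CPM (0.85). Rnase10, a gene known from the epididymis, was higher at 2.98 to 4.51 CPM against 1.77 to 2.18 CPM (0.90).

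The general chaperones of the endoplasmic reticulum, which many cell types use, were called higher about as often as genes in general. Of 16, 6 were called higher and 1 lower by limma, beside 36.3% of all genes called higher and 14.2% lower. Their median log2 fold change was 0.08, beside 0.12 for all genes. Txndc5 (1.02), Ppib (0.67), P4hb (0.49) and Uggt1 (0.47) had the largest increases, and Uggt2 (-0.25) was lower. Canx, the relative of Clgn, had a log2 fold change of 0.18 (164 to 204 CPM in wild type, 197 to 219 CPM in mutants), and Calr, the relative of Calr3, one of 0.07 (527 to 568 CPM and 565 to 597 CPM). Neither was called, and after size factors Calr turned to -0.07. P4hb, the relative of Pdilt, stood at 81.7 to 88.5 CPM in wild type and 114 to 126 CPM in mutants. After size factors 5 were called higher, Pdia4 being lost, and 2 lower, beside 4627 of 17126 genes called higher and 4294 lower.

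The ADAM genes known from somatic tissues went the other way from the members. Of 12, 9 were in the table, and 7 were called higher and none lower by limma, on CPM and after size factors alike. On CPM, 36.3% of all genes were called higher and 14.2% lower. After size factors 4627 of 17126 genes were called higher and 4294 lower. They included Adam23 (2.62), Adam12 (1.09), Adam9 (1.06) and Adam10 (1.05), a sheddase of many cell types. Adam10 stood at 25.1 to 29.2 CPM in wild type and 55.0 to 57.0 CPM in mutants. Adam11 (0.00) and Adam22 (-0.16) were not called.

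Cell type markers moved with these groups. Of all genes, 14.2% were called lower and 36.3% higher on CPM. After size factors 25.1% were called lower, and 4627 of 17126 genes higher. Of 10 round spermatid markers 5 were called lower by limma (log2 fold changes -0.11 to -0.26), with a summed level of 1421 to 1519 CPM in wild type and 1241 to 1334 CPM in mutants. All 10 elongating spermatid markers were called lower (-0.40 to -0.76), with a sum of 25819 to 27344 CPM and 16580 to 18907 CPM. Of 10 spermatocyte markers 2 were called lower and 1 higher (sums 1918 to 2059 CPM and 1746 to 1837 CPM), and of 9 spermatogonial markers found 5 were called higher (165 to 179 CPM and 226 to 256 CPM). Somatic markers found in the table were called higher: 8 of 8 for Sertoli cells (1246 to 1361 CPM and 2556 to 2689 CPM), 7 of 8 for Leydig cells (1057 to 1268 CPM and 4425 to 4581 CPM) and 8 of 8 for macrophages (78.1 to 87.5 CPM and 206 to 259 CPM). Of 7 epididymal markers, including Adam7, Crisp1 and Lcn5, only Rnase10 was in the table. After size factors the counts were 10 of 10 lower for round spermatids, 10 of 10 lower for elongating spermatids, and 4 lower and 0 higher for spermatocytes. Of the spermatogonial markers 1 of 9 was then higher, and 7 of 8 for Sertoli cells, 7 of 8 for Leydig cells and 8 of 8 for macrophages. The part of cell makeup in the changes of the members was not tested.

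Beside these markers, every member but Adam1a changed most like the round spermatid markers. The mean log2 level of each marker list was subtracted from each member in each library, as a description. Against round spermatid markers the difference between groups ran from -0.23 (Adam1a) to 0.06 (Clgn). Adam1a and Adam5 (-0.13) were lower there without overlap between groups, while the other 8 overlapped. Against elongating spermatid markers all 10 were relatively higher in mutants, by 0.19 (Adam1a) to 0.48 (Clgn). Adam1a was thus nearer to these, and Calr3 was almost as near to them (0.22) as to round spermatid markers (-0.20). Against spermatocyte markers all 10 were relatively lower, by -0.39 (Adam1a) to -0.09 (Clgn). Clgn was thus almost as near to spermatocyte markers as to round spermatid markers. The median log2 fold changes of the round spermatid, elongating spermatid and spermatocyte lists were -0.18, -0.63 and -0.02. That of all tested genes was 0.12, and how all genes stood against the marker lists was not computed.

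**Figure D5:**
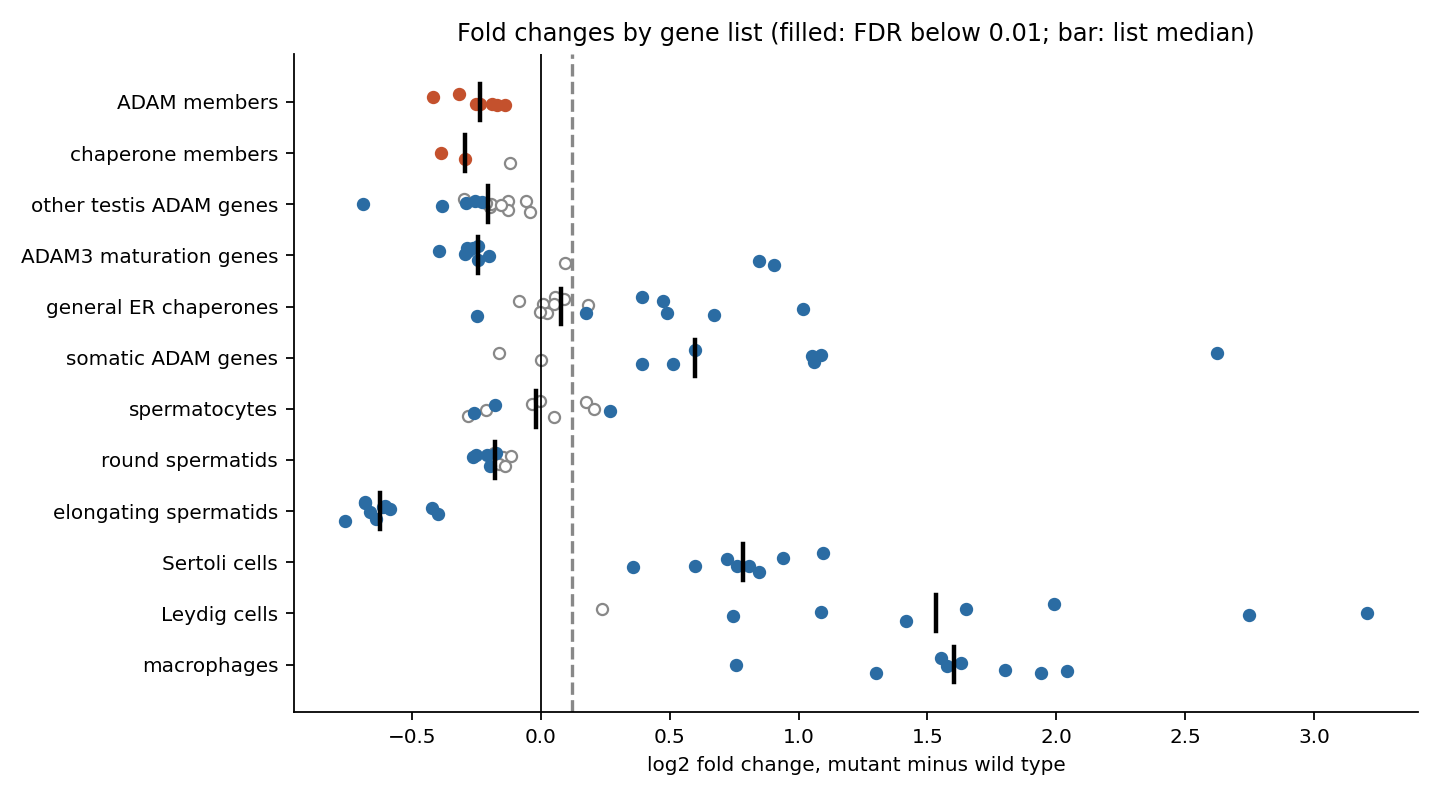
Log2 fold change (mutant minus wild type) of each gene by list; filled points have an FDR below 0.01 in limma, black bars are list medians and the dashed line is the median of all tested genes at 0.12. The ADAM genes and their chaperones (red, medians -0.23 and -0.29) lie with the other testis ADAM genes and the round spermatid markers, to the right of elongating spermatid markers and to the left of somatic ADAM genes and somatic cell markers.

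Over all 7 libraries, the genes outside the member list with log2 levels most like those of Adam3 by Pearson's r were 1700001K19Rik, Lpo, Ttc23l, Cfap144 and Cimip3 (r = 0.997 to 0.999). The libraries share the difference between groups, so r is high for many genes: 4.87% of all genes exceeded 0.95. Among the members, r with Adam3 was 0.982 for Adam5, 0.972 for Adam1a and 0.949 for Adam2, and lowest for Clgn at 0.699. Lpo, which encodes lactoperoxidase, fell from 7.91 to 18.8 CPM in wild type to 0.154 to 0.218 CPM in mutants (log2 fold change -5.20). The 4 others fell by less than Lpo, with log2 fold changes of -0.21 (Ttc23l) to -0.61 (Cfap144).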

How the data were processed

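RNA-seq libraries of whole testis from wild-type (n = 4) and Iqch mutant (n = 3) mice were analysed, of 8 samples listed. According to the study's methods and the submitters' processing notes, reads were trimmed with Trimmomatic, mapped to GRCm39 with Subread and counted with featureCounts, and a gene was kept where 2 or more samples of either group reached 75 reads. The values the authors deposited are CPM, which sum to 1000000 in each library over 17127 genes, with no between-sample factor. They were whole multiples of a step in all libraries (tolerance 0.001 of a step), and counting error is the only error that such reads would describe.

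Linear models were fitted with limma 3.58.1 under R 4.3.3, with a mean-variance trend in eBayes, to log2(CPM + 0.1). They covered the 17126 genes that reached 2.2 CPM in 2 or more samples of either group. The fit and the scaling factors were tested on simulated data, in which few genes changed, about equally in both directions. That setting does not cover the imbalance seen here on CPM, with many more genes called higher than lower. Log2 fold changes of low genes are understated by the pseudocount. Intervals are 95%. P-values set the difference between groups against the spread between these samples, which limma moderates towards the trend over all genes. Named genes were the 10 members, every tested gene of the other testis ADAM and ADAM3 maturation lists, up to 4 called genes in each direction of the other lists, and the 5 genes most like Adam3; other single genes were named after their values were seen. The members and lists were chosen with earlier results of these data known. Of the table's genes, 17045 (99.5%) were found in GENCODE M39 on GRCm39. Sequences, translations and alignments used Biopython 1.88, under Python 3.11.15. SciPy 1.17.1 gave the intervals, NumPy 2.4.6 and pandas 2.3.3 the summaries, and matplotlib 3.10.9 the figures. Alternatives were other pseudocounts, minimums and scalings, a replicate block and each library left out in turn.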

Additional observations from a re-analysis of the deposited data

Results flagged for a closer look

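Of 45 named genes checked for a library apart from the other wild-type libraries (Dixon's ratio), 1 was found. That is 2.2%, fewer than the 1 in 20 or so that chance would give. Cmtm2b, a gene needed for ADAM3 to reach the sperm surface, stood at 337 CPM in wild type 1, while wild types 2 to 4 held 346 to 347 CPM. The gap was 0.954 of the group's range, which was itself narrow. All mutant libraries stood lower, at 275 to 289 CPM.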

How the results depend on the processing

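No member changed sign under any alternative. With a pseudocount of 1 or 0.01, no minimum or a minimum of 5 CPM, the member calls were the same, and the minimum of 5 CPM left 1 ADAM3 maturation gene called higher, since Rnase10 was no longer tested. Median-of-ratios size factors called 11 other testis ADAM genes, 2 general chaperones and 4294 of all genes lower, and TMM factors 11, 2 and 4107. Both also called Clgn lower (-0.25 and -0.24). With 1 library left out, 4 to 7 ADAM members, 2 to 3 chaperones and 0 to 1 general chaperones were called lower, beside 1934 to 2392 of all genes. In those fits 0 to 2 ADAM members were called lower relative to Clgn and 0 to 1 higher relative to Pdilt. The difference between the ADAM and chaperone medians ranged from 0.04 to 0.08. Both groups share replicate numbers 1, 2 and 4, but deviations of same-numbered libraries were not correlated (r = 0.011, 0.0005 and -0.083), so the numbers were not taken to pair the mice. With a replicate block on those 6 libraries, 7 of the 10 members were called lower (Adam24 and Adam32 were not), beside 2126 of all genes. Of the general chaperones 0 were called lower, and 1 ADAM member was called lower relative to Clgn. In both directions together, 7705 of all genes were called against 8640 without the block. edgeR and DESeq2 were not run, because the deposited values are CPM. With 3 and 4 mice, calls near the threshold changed with the mice used, and the 3 ADAM calls lost on leaving out a library were those of Adam18, Adam24 and Adam32.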

Other observations

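Within wild type the chaperones did not vary together, which was seen after the values were known and was not tested. Clgn was highest in wild type 3 (779.8 CPM) and lowest in wild type 4 (689.9 CPM). Calr3 was lowest in wild type 3 (123 CPM) and highest in wild type 4 (150.4 CPM). Pdilt was highest in wild type 1 (179 CPM) and lowest in wild type 2 (165 CPM), and the ADAM genes as a group spanned 3795 to 3902 CPM.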
